A study of Homo sapiens with 15 samples.

Results

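The keratin and vimentin filaments of the cytoplasm are described here through the transcripts of 10 genes, the keratins KRT7, KRT8, KRT18, KRT19, KRT5, KRT6A, KRT17, KRT80 and KRT81 and the type III filament gene VIM. They were taken by symbol from the 19612 genes of the count table, and the list was chosen with earlier results of these data known. RNA was sequenced from 15 libraries, 3 for each of 5 conditions. The first condition was vehicle-treated H1975, a lung adenocarcinoma cell line with mutant EGFR (Samples 1a to 1c). The other 4 used H1975–OR, a subline grown out of H1975 under continued osimertinib, an EGFR inhibitor, and not described as a single clone. These cells received vehicle in Samples 2a to 2c and the active form of vitamin D3, 1,25(OH)2D3, at 100 nM in Samples 3a to 3c. Osimertinib was given at 500 nM in Samples 4a to 4c, and the 2 agents were combined at these doses in Samples 5a to 5c. H1975–OR was otherwise maintained with 500 nM osimertinib, so Samples 2a to 2c and 3a to 3c were treated without a drug normally present. Every culture was in medium with charcoal-stripped serum and was collected at 96 h after doses at 0, 48 and 92 h, and the 3 libraries of a condition came from separate passages. No H1975 library received osimertinib or 1,25(OH)2D3.

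Keratins form filaments only as pairs of an acidic type I chain and a basic type II chain, so that a cell needs a partner of each type. Simple epithelia such as the glandular lining of the lung build theirs from KRT8 and KRT18, joined by KRT7 and KRT19, whereas KRT5 belongs to the basal layer of stratified epithelia and KRT6A and KRT17 to wounded or stressed epithelium. Vimentin assembles with itself, is the main filament protein of mesenchymal cells, and is widely used as a marker of cells that have left the epithelial state. In these cultures a smaller share of expressing cells and less RNA per cell cannot be told apart.

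The estimated counts per library summed to between 4378030 and 6140120 (median 4974785), and levels are given as CPM, counts scaled to a common library size with TMM factors. Sample 3a, which the original work also set aside, was left out of the means and tests unless it is said to be kept in. It had a mean correlation with the other libraries of its condition of 0.912, against 0.935 to 0.965 for the other 14. The values of Samples 3b (0.940) and 3c (0.935) include their correlation with 3a, and the lowest of the other conditions was 0.937 in 5a. CDH1, the gene of E-cadherin, lay between 108 and 384 CPM in H1975 and between 5.21 and 9.41 CPM in vehicle-treated H1975–OR. EPCAM, an epithelial surface antigen, fell from between 75.01 and 207 CPM to between 9.31 and 12.7 CPM, with an adjusted p of 0.000643 in edgeR's quasi-likelihood test. Of 5 tested markers of lung adenocarcinoma and epithelium, 4 were called lower there, MUC1 and KRT7 among them, beside 9.32% of all genes. NKX2-1, the lung lineage factor, measured 31.9 to 74.8 CPM in vehicle-treated H1975–OR and was not called against H1975 in either direction. The alveolar product SFTPB did not exceed 1.90 CPM in the 14 libraries. It was therefore near the floor of 3 counts, which was 0.489 to 0.685 CPM.

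The members lie at 3 places in GRCh38 (GENCODE release 44). The type II genes KRT80, KRT7, KRT81, KRT6A, KRT5 and KRT8 stand together with the type I gene KRT18 on chromosome 12 (chr12:52168996-52952906), the only type I gene there among the members. KRT19 and KRT17 lie on chromosome 17 (chr17:41523617-41624842), and VIM lies on chromosome 10 (chr10:17228241-17237593). KRT8 and KRT18 are on opposite strands and their annotated genes overlap. Of the 31-base words in the KRT18 transcript, 66.9% also occurred in other annotated genes, and of those in KRT8 59.8%, in both cases with processed pseudogenes as the leading partners. For KRT81 43.2% of the words were shared with KRT86, a neighbouring hair keratin, and for KRT6A 45.8% with KRT6C. KRT17 shared 37.7% and KRT19 11.4% with other genes. With genes that have a row in the count table, KRT18 shared 0.0% of its words, KRT8 4.2% and KRT17 8.3%, against 49.9% for KRT81 and 52.2% for KRT6A. Of the 68 named pseudogenes of KRT18, 51 of KRT8 and 8 of KRT17, 0 had a row there. How the authors' quantification divided reads among such copies is not given in the sources used here, so the values of KRT8, KRT18, KRT81, KRT17 and KRT6A carry that uncertainty. VIM (0.2%), KRT80 (1.5%), KRT7 (5.3%) and KRT5 (8.2%) shared few words.

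The 250 bases before the RefSeq start sites (GRCh38.p14) of VIM, the member with the highest CPM in each condition, and KRT5, which was at or near 0 throughout, are shown because they set an abundant filament gene beside one at the floor. VIM is read from the plus strand at chr10:17227991-17228240 and KRT5 from the minus strand at chr12:52520395-52520644. Capitals mark the motifs found, GGGCGG (the Sp1 box) in VIM and CAGGTG (an E-box that SNAI and ZEB factors can bind) in KRT5.
VIM: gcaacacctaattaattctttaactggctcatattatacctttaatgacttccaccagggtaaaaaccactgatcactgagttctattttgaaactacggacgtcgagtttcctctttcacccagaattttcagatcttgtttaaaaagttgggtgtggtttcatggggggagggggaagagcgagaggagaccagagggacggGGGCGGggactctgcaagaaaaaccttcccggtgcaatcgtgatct
KRT5: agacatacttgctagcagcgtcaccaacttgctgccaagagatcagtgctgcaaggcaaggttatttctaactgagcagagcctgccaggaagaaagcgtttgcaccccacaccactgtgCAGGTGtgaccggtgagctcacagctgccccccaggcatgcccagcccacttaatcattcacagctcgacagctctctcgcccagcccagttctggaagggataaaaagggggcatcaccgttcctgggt
The VIM box lay 46 to 41 bases before the start, and GGGCGG occurred on either strand in 15786 of 35116 promoter windows of 300 bases. The KRT5 E-box lay 130 to 125 bases before the start, and CAGGTG was found in 20.6% of the windows. Neither window held TATAAA (11.5% of windows), the AP-1 site TGANTCA (7.71%) or AGGTCA repeated directly with 3 bases between (0.0057%), the last being a spacing that the vitamin D receptor can bind. The window of KRT8, an abundant keratin and the only other member with a window, held none of the motifs searched. Motifs were searched on both strands, do not overlap one another here, and a match or its absence describes letters only.

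Of the 10 members, 8 had enough counts to be tested in 1 edgeR fit of 14 libraries and 12819 genes. KRT5 and KRT6A did not. KRT5 reached at most 2 counts in any library and 5 counts over all 15, and KRT6A had 2 counts in Sample 3c and 0 elsewhere. Both were thus below the floor of 3 counts in every library. More widely, 41 of the 55 keratin genes in the table never exceeded 3 counts.

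Per kilobase of the longest transcript, the order in vehicle-treated H1975 was VIM, KRT18, KRT7, KRT19, KRT8, KRT80, KRT81 and KRT17. Mean levels were 1213, 1120, 899, 823, 191, 34.6, 4.09 and 0.61 CPM per kb. In vehicle-treated H1975–OR the first 6 stood in the same order at 1707, 1441, 324, 245, 180 and 34.0 CPM per kb, and KRT17 at 6.34 CPM per kb stood above KRT81 at 0.70. The upper order depends on the transcript chosen. With the canonical transcript KRT18 stood above VIM, at 1344 against 1213 CPM per kb in H1975 and at 1730.1 against 1707 in vehicle-treated H1975–OR. With the median transcript length KRT19 stood second in H1975 at 1572 CPM per kb, after VIM at 1992 and before KRT18 at 1337.

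**Figure D1:**
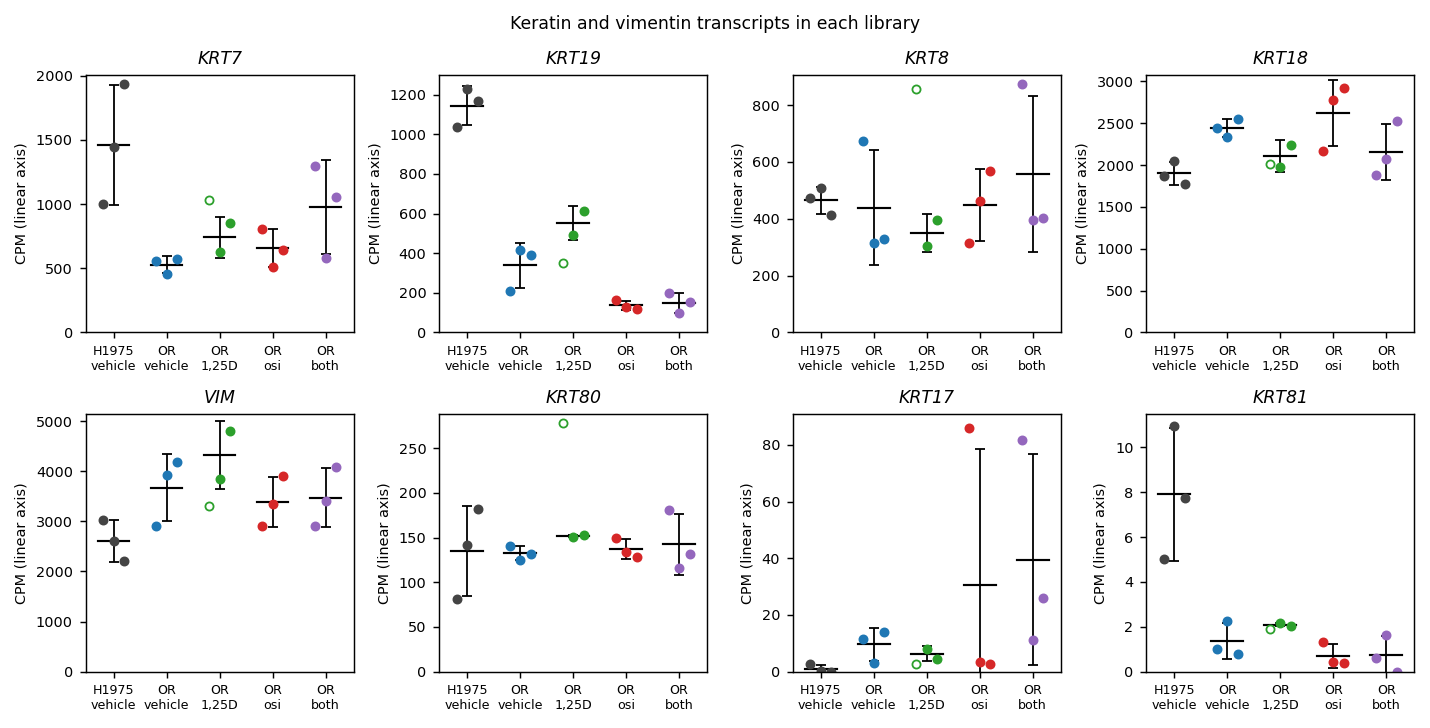
CPM (linear axes from 0) of the 8 tested members in each library of the 5 conditions, where 1,25D is 1,25(OH)2D3 and osi is osimertinib. Filled circles are libraries, the open circle is Sample 3a, lines and bars are means ± SD without it. KRT19 and KRT81 lie highest in H1975 with no overlap, and single libraries carry the means of KRT17 under osimertinib and under both agents.

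Resistant and parental cells were compared first, both under vehicle. The simple-epithelial keratins KRT19 and KRT7 and the hair keratin KRT81 were lower in H1975–OR, and no member was significantly higher. These 3 of 8 members stand beside 18.7% of all tested genes called in either direction and 9.32% called lower. The median log2 fold change of the 8 members was -0.05, against 0.00 over all genes.

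KRT19, the smallest keratin and a type I chain of simple epithelia, measured 1035, 1231 and 1168 CPM in H1975 (Samples 1a, 1b and 1c) and 209.9, 418 and 392 CPM in vehicle-treated H1975–OR (2a, 2b and 2c). The groups did not overlap, and the highest resistant library was far below the lowest parental one. KRT19 was 3.36-fold lower (log2 fold change -1.75, SE 0.28, adjusted p = 0.00127), and it kept this call under all 23 alternatives.

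KRT7, the type II keratin used to recognise lung adenocarcinoma, measured 1003, 1443 and 1934 CPM in H1975 and 552, 452 and 574 CPM in vehicle-treated H1975–OR. The parental libraries were spread widely but all lay above the resistant ones. KRT7 was 2.77-fold lower (log2 fold change -1.47, SE 0.30, adjusted p = 0.00513), again under all 23 alternatives.

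KRT81, a type II hair keratin, was scarce, with 29, 60 and 38 counts in H1975 and 5, 11 and 4 counts in vehicle-treated H1975–OR. It was 5.74-fold lower (log2 fold change -2.52, SE 0.80, adjusted p = 0.0437), but only 11 of its 22 alternatives kept the call. Leaving out Sample 1a, 1b or 1c gave an adjusted p of 0.0502, 0.133 or 0.0905, and leaving out 2a, 2b or 2c gave 0.104, 0.0607 or 0.138. The call was also lost without 3b (0.0604), 3c (0.0596), 4b (0.0523) or 4c (0.0519), libraries of neither compared group. KRT86, which shares sequence with KRT81, stayed between 2.25 and 3.07 CPM in the same 6 libraries.

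The pair KRT8 and KRT18 did not share the fall of KRT19 and KRT7. KRT18, the type I partner, measured 1872, 2046 and 1779 CPM in H1975 and 2444, 2336 and 2554 CPM in vehicle-treated H1975–OR. All 3 resistant libraries lay above the parental ones, by 1.29-fold on average (log2 fold change 0.37, SE 0.14), yet the adjusted p was 0.0865. It was 0.0449 with DESeq2, 0.0328 in a fit of the 8 libraries without osimertinib and 0.0452 with the replicate letter as a block. KRT18 was called under 4 of 23 alternatives.

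KRT8, the type II partner, measured 474, 507 and 414 CPM in H1975 and 675, 316 and 327 CPM in vehicle-treated H1975–OR. Sample 2a alone was above the parental libraries and the other 2 were below them (log2 fold change -0.08, SE 0.35, adjusted p = 0.901). Without the H1975–OR libraries of letter a (2a, 4a and 5a) the log2 fold change was -0.54, with an adjusted p of 0.0258.

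VIM measured 3032, 2608 and 2201 CPM in H1975 and 2911, 3927 and 4192 CPM in vehicle-treated H1975–OR. Sample 2a lay within the parental range and 2b and 2c lay above it. The difference was 1.41-fold (log2 fold change 0.49, SE 0.18) with an adjusted p of 0.0821. DESeq2 gave 0.0422, and leaving out Sample 2a gave a log2 fold change of 0.63 and an adjusted p of 0.0349.

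KRT17, a type I keratin of stressed epithelium, had 15, 1 and 0 counts in H1975 and 57, 15 and 73 counts in vehicle-treated H1975–OR. The lowest resistant library, at 3.10 CPM, was just above the highest parental one, at 2.60 CPM. The log2 fold change of 3.29 had an SE of 1.49 and an adjusted p of 0.146, or 0.0455 without Sample 4a. With the replicate letter as a block the log2 fold change was 4.22 and the adjusted p 0.0186. KRT17 was called under 2 of 22 alternatives. KRT80, a type II keratin found across many epithelia, stayed at 81.4, 141 and 182 CPM in H1975 and 141, 125 and 131 CPM in vehicle-treated H1975–OR (log2 fold change -0.02, SE 0.24, adjusted p = 0.961).

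The make-up of the filament transcripts was then followed as each gene's share of the summed CPM per kb of 55 keratins and 13 other cytoplasmic filament genes, with no test. In vehicle-treated H1975, keratins made up 71.2% ± 5.49 (SD, n = 3) and VIM 28.1% ± 5.34. In vehicle-treated H1975–OR the shares were 55.6% ± 4.96 and 41.8% ± 4.53, and the groups did not overlap for either. KRT19 went from 19.0% to 5.94% and KRT7 from 20.7% to 8.004%, while KRT18 went from 25.9% to 35.6%. Keratin transcripts thus remained the larger part of the total in every library, on the longest-transcript scale. With the median transcript length the mean of vehicle-treated H1975–OR was 49.6% keratin and 48.3% VIM, and with 1,25(OH)2D3 it was 47.1% keratin and 51.5% VIM, so the larger part there depends on the length used. The share of VIM was highest with 1,25(OH)2D3 at 45.5%, and stood at 39.7% with osimertinib and 40.8% with both agents.

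**Figure D2:**
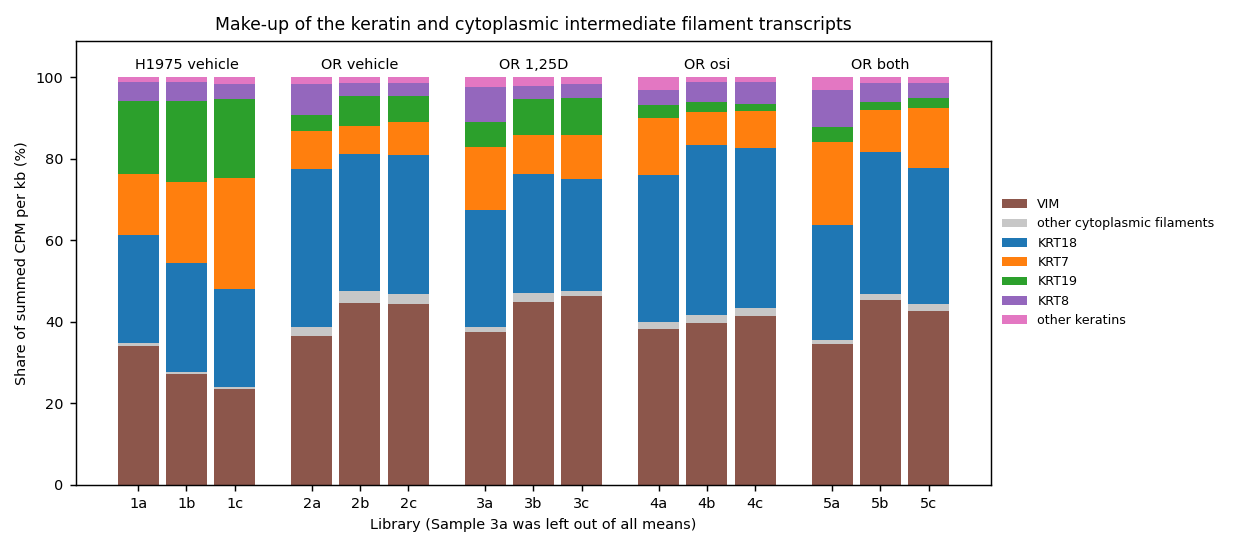
Share (%) of each gene in the summed CPM per kb of keratin and cytoplasmic intermediate filament genes, 1 bar per library, grouped by condition (1,25D, 1,25(OH)2D3, osi, osimertinib). The KRT19 and KRT7 blocks are wider in the H1975 bars, where keratins hold 65.2% to 76.0%, than in the vehicle-treated H1975–OR bars, where they hold 52.4% to 61.3%.

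Treatments within H1975–OR were compared next. 1,25(OH)2D3 alone gave no significant member against vehicle (0 of 8), where 0.226% of all genes were called. By edgeR 817 genes had an unadjusted p under 0.05, 1 of them a member, and DESeq2 called 85 genes. That member was KRT19, at 493 and 615 CPM in Samples 3b and 3c against 209.9, 418 and 392 CPM under vehicle. Both treated libraries were above all vehicle libraries, by 1.63-fold (log2 fold change 0.70, SE 0.30, adjusted p = 0.728). KRT7, at 629 and 850.3 CPM, was also above all 3 vehicle libraries (log2 fold change 0.49, SE 0.32, adjusted p = 0.919). CDH1, by contrast, rose to 108 and 152 CPM with an adjusted p of 0.00314. It was the 1 gene called of 5 tested markers of lung adenocarcinoma and epithelium. EPCAM, not called, lay below the vehicle libraries, at 7.52 and 7.25 CPM against 12.7, 9.31 and 12.7 CPM. KRT80, at 151 and 153 CPM, stood above the vehicle libraries and KRT18, at 1974 and 2240.3 CPM, below them, with adjusted p values of 0.976 and 0.943 in edgeR's test. For KRT8, KRT17, KRT81 and VIM the adjusted p was 0.967 to 0.988. With 2 libraries in the treated group, differences of these sizes were not resolved.

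Osimertinib alone also gave 0 of 8 members, against 0.0936% of all genes. Across genes 1030 had an unadjusted p under 0.05 by edgeR and 144 were called by DESeq2. KRT19 measured 164, 126 and 117 CPM in Samples 4a, 4b and 4c, all below the 209.9, 418 and 392 CPM of the vehicle libraries. It was 2.5-fold lower (log2 fold change -1.32, SE 0.28), with an adjusted p of 0.124. Its call depended on the setting. The adjusted p was 0.000894 with DESeq2, 0.0189 without Sample 2a, the lowest vehicle library, and 0.00985 without 2a, 4a and 5a. The other 7 members had adjusted p values from 0.833 to 0.999.

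Both agents were set against each single condition. Against vehicle, 0 of 8 members were called, beside 0.764% of genes, with 1660 genes at an unadjusted p under 0.05 by edgeR and 417 called by DESeq2. KRT19 at 199, 98.0 and 154 CPM in Samples 5a, 5b and 5c lay below all vehicle libraries (log2 fold change -1.18, SE 0.28, adjusted p = 0.0858). Its adjusted p was 0.00253 with DESeq2, 0.0170 without Sample 2a, 0.0488 without 5a and 0.00401 without 2a, 4a and 5a. KRT7 at 1294, 578 and 1056 CPM lay above all 3, and above the vehicle library of its own letter each time (log2 fold change 0.89, SE 0.30, adjusted p = 0.215). With the replicate letter as a block in the 11 H1975–OR libraries, a fit chosen after the data had been seen, KRT7 had a log2 fold change of 0.82 and an adjusted p of 0.0274, whereas the block in all 14 libraries gave 0.129. The other 6 members had adjusted p values from 0.537 to 0.901.

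Against osimertinib alone, both agents gave 0 of 8 members, beside 0.109% of genes, with 588 genes at an unadjusted p under 0.05 by edgeR and 70 called by DESeq2. KRT7 was higher with both agents than with osimertinib in each letter (log2 fold change 0.58, SE 0.29), with an adjusted p of 1.0. KRT19 had a log2 fold change of 0.15 with an SE of 0.27, and the adjusted p of all 8 members was 1.0. Against 1,25(OH)2D3 alone, 1 of 8 members was called, beside 0.554% of genes. KRT19 was 3.68-fold lower with both agents (log2 fold change -1.88, SE 0.30, adjusted p = 0.0201). This call was lost without Sample 3b (0.0883), 3c (0.175), 5b (0.0667) or 5c (0.0583), in the fit of the 11 H1975–OR libraries (0.0537), and in a fit of these 2 groups alone (0.125). The other 7 members had adjusted p values from 0.499 to 0.954.

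Osimertinib and 1,25(OH)2D3 alone were compared so that neighbouring levels could be ordered. KRT19 was again the 1 member called, 4.07-fold lower with osimertinib (adjusted p = 0.00778), where 1.5% of genes were called. Without Sample 3c the adjusted p was 0.0854. The other 7 members had adjusted p values from 0.446 to 0.898. Whether osimertinib altered the response to 1,25(OH)2D3 was tested as an interaction. It was significant for 0 of 8 members and for 0.0% of genes, with 389 genes at an unadjusted p under 0.05 by edgeR and 11 called by DESeq2. For KRT19 the interaction was -0.56 on the log2 scale with an SE of 0.41, so an interaction of this size was not resolved.

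**Figure D3:**
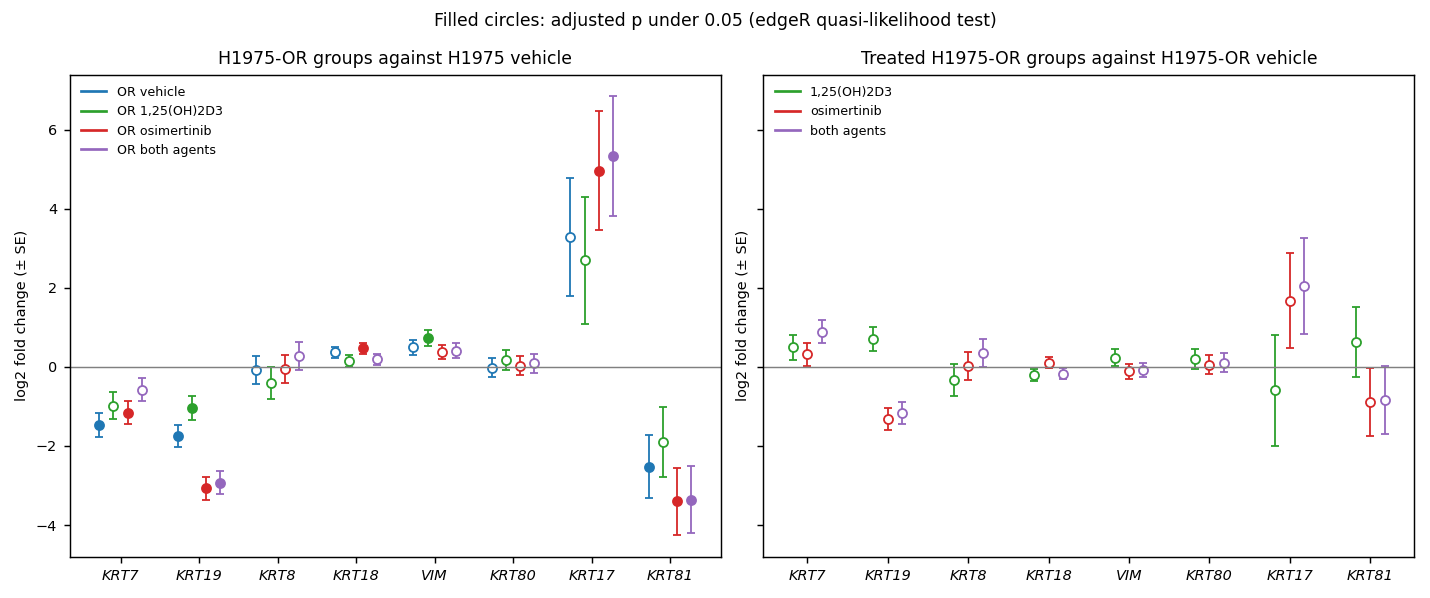
Log2 fold change ± SE of the 8 tested members, with the 4 H1975–OR groups against vehicle-treated H1975 on the left and the 3 treated H1975–OR groups against vehicle-treated H1975–OR on the right. Filled circles passed an adjusted p of 0.05 in edgeR's quasi-likelihood test. KRT19 lies below 0 and is filled in all 4 groups on the left, from -1.05 to -3.07, and on the right no circle is filled.

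The treated H1975–OR groups were finally set against vehicle-treated H1975, which shares its libraries with the first comparison. Over these 24 tests 10 were called. With 1,25(OH)2D3, 2 of 8 members were called, beside 18.3% of genes. KRT19 was 2.06-fold lower (log2 fold change -1.05, SE 0.31, adjusted p = 0.0354) and VIM was 1.66-fold higher (log2 fold change 0.73, SE 0.20, adjusted p = 0.0271), at 3845 and 4808 CPM in Samples 3b and 3c. Both VIM libraries stood above all parental ones. The VIM call was lost without Sample 1b (0.0695), 1c (0.0914), 3b (0.0573) or 3c (0.223) and with Sample 3a kept in (0.0505). That of KRT19 was lost without 1b (0.0867), 1c (0.0752), 3b (0.219) or 3c (0.111) and with the replicate block (0.0532). KRT7 was lower in both libraries than in all of H1975 (log2 fold change -0.98, SE 0.34, adjusted p = 0.0626) and passed the threshold under 8 of 23 alternatives, among them DESeq2 (0.0169), the fit of 8 libraries (0.0355), the replicate block (0.0425), leaving out 2a, 4a and 5a (0.0494) and leaving out Sample 1a (0.0341), 5a (0.0485) or 5b (0.0297). KRT8, KRT17, KRT18, KRT80 and KRT81 had adjusted p values from 0.163 to 0.700. With the replicate block that of KRT17 was 0.0214, the 1 of its 22 alternatives that passed.

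With osimertinib, 5 of 8 members were called, beside 23.4% of genes. KRT19 was 8.41-fold lower than in H1975 (log2 fold change -3.07, SE 0.29, adjusted p = 5.74e-05) and KRT7 2.23-fold lower (adjusted p = 0.0145). KRT81 was 10.6-fold lower (adjusted p = 0.0125). It had 7, 2 and 2 counts in Samples 4a, 4b and 4c, with 4b and 4c below the floor of 3 counts. KRT18 was 1.38-fold higher (adjusted p = 0.0290), at 2173, 2775 and 2921 CPM, and every osimertinib library lay above every parental one. KRT17 was called higher with a log2 fold change of 4.96, but its counts were 451, 16 and 14. Without Sample 4a the log2 fold change was 1.64 and the adjusted p 0.342. The calls of KRT7 and KRT18 were each lost when single libraries were left out, that of KRT7 without 1c (0.0656) or 4b (0.0688) and that of KRT18 without 1a (0.0690), 1c (0.0978), 4b (0.0851) or 4c (0.113). KRT81 lost its call without 4b (0.0570) or 4c (0.0538), and KRT17 also lost it without 1b (0.107) or 1c (0.1003). KRT8, KRT80 and VIM had adjusted p values of 0.936, 0.944 and 0.163.

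With both agents, 3 of 8 members were called, beside 27.2% of genes. KRT19 was 7.59-fold lower (adjusted p = 3.87e-05), and kept its call under all 22 alternatives here and with osimertinib alone. KRT81, with 3, 7 and 0 counts, was 10.3-fold lower (adjusted p = 0.0118). KRT17 had 407, 47 and 110 counts and a log2 fold change of 5.33 (SE 1.51, adjusted p = 0.0205), and its call was lost without Sample 1b (0.0789), 1c (0.0703) or 5a (0.0581). KRT7 overlapped with the parental libraries (log2 fold change -0.58, SE 0.29, adjusted p = 0.167), and so did VIM at 2911, 3409.8 and 4084 CPM (log2 fold change 0.41, adjusted p = 0.121). KRT8, KRT18 and KRT80 had adjusted p values of 0.628, 0.355 and 0.832.

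Across the 5 conditions KRT19 therefore stood in the order H1975, 1,25(OH)2D3, vehicle, both agents and osimertinib, at means of 1144 ± 100.0, 554 ± 86.3, 340 ± 113, 150 ± 50.7 and 136 ± 24.9 CPM (SD, n = 3, and n = 2 with 1,25(OH)2D3). Of its neighbouring pairs, H1975 and 1,25(OH)2D3 differed by the test and the other 3 pairs did not. KRT7 stood in the order H1975, both agents, 1,25(OH)2D3, osimertinib and vehicle, at 1460 ± 466, 976 ± 365, 740 ± 156, 654 ± 147 and 526 ± 64.9 CPM, and no neighbours differed. VIM ran from 4326 ± 681 CPM with 1,25(OH)2D3 to 2614 ± 415 CPM in H1975 and KRT18 from 2623 ± 396 CPM with osimertinib to 1899 ± 136 CPM in H1975. Neither had a neighbouring pair that differed, nor had KRT8, KRT17, KRT80 or KRT81.

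Values were also read by replicate letter. KRT8 was high in Samples 2a, 3a and 5a, at 675, 857 and 876 CPM, where the b and c libraries of the same conditions lay between 303 and 402 CPM. Under osimertinib the order turned, with 313 CPM in 4a and 464 and 568 CPM in 4b and 4c. KRT17 was high in 4a and 5a, at 85.8 and 81.6 CPM, but not in 2a at 11.7 CPM or 3a at 2.55 CPM. KRT7 was lowest in the b library and VIM in the a library of each H1975–OR condition. The part of the passage in these values was not tested.

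**Figure D4:**
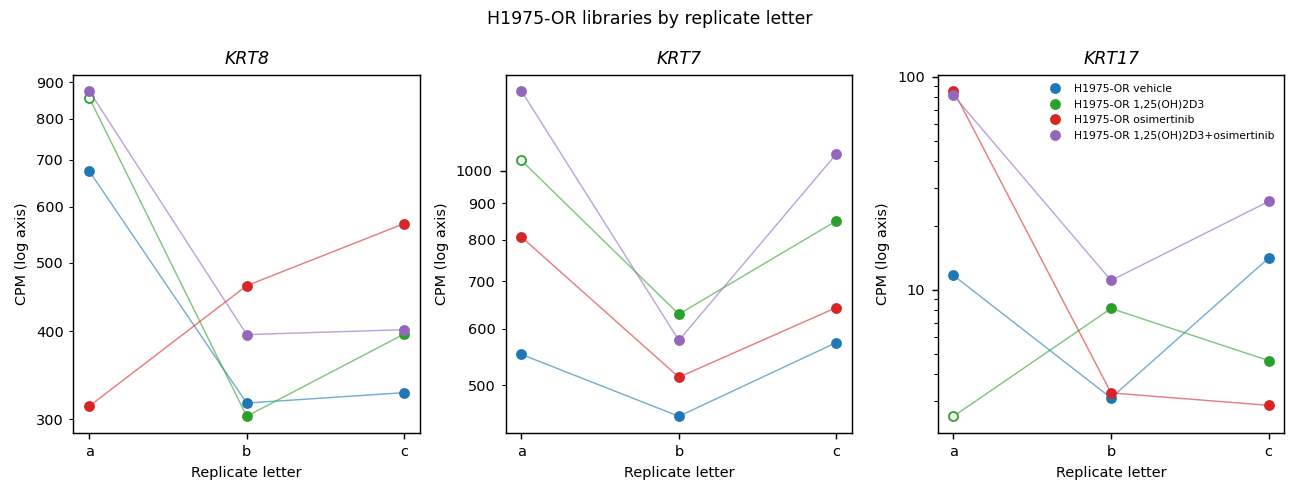
CPM (log axes) of KRT8, KRT7 and KRT17 in the H1975–OR libraries by replicate letter, with lines joining libraries of 1 condition and the open circle marking Sample 3a. KRT8 stands at 675 to 876 CPM in the a libraries of 3 conditions and at 313 CPM in 4a, and KRT17 reaches 85.8 and 81.6 CPM in 4a and 5a.

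Other genes of the filament system give the setting. Of the keratins outside the members, KRT10, KRT13, KRT15, KRT16 and KRT86 were tested between vehicle-treated H1975–OR and H1975, and none passed in edgeR. KRT13 had an adjusted p of 0.0692 there and of 0.0352 with DESeq2. Of 16 intermediate filament genes that are no keratins, VIM among them, 11 were tested between vehicle-treated H1975–OR and H1975. Of these, 3 were higher and 2 fell, the median log2 fold change being 0.49, where 18.7% of all genes were called in either direction. NES, the gene of nestin, a partner that copolymerises with vimentin, measured 307, 575 and 511 CPM in vehicle-treated H1975–OR against 125, 86.8 and 85.5 CPM in H1975, with no overlap (log2 fold change 2.23, SE 0.30, adjusted p = 0.000490). With both agents NES fell to 107, 159.8 and 226 CPM (adjusted p = 0.0393 against vehicle), the 1 call that these lists of filament genes gave for a treatment against vehicle. That call was kept under 11 of 24 alternatives, and was lost without Sample 2b (0.167), 2c (0.156), 5a (0.0766), 5b (0.157) or, with values from 0.0523 to 0.0581, 1b, 1c, 3b, 3c, 4b or 4c. SYNC, the gene of syncoilin, rose from a mean of 4.63 to 22.0 CPM and BFSP1, a lens filament gene, from 8.55 to 18.9 CPM, while LMNB1, the gene of the nuclear lamin B1, fell from 50.7 to 22.2 CPM.

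Of 21 plakins and other keratin partners, 20 were tested, with 4 higher, 3 lower and a median of -0.03 (again beside 18.7% of all genes). PKP3, a desmosomal plakophilin, fell from 103 to 37.6 CPM (adjusted p = 0.00117), and SFN, the 14-3-3 sigma protein that binds keratins, from 114 to 37.6 CPM (adjusted p = 0.00974). PPL and DST, which link filaments to junctions, rose from 67.0 to 141 CPM and from 246 to 441 CPM, the call of DST being lost without Sample 1b (0.0617). Of 18 regulators of the epithelial state, 14 were tested, with 2 higher and 6 lower, beside 18.7% of all genes called and 9.32% called lower. The median was -1.42 on the log2 scale, against 0.00 over all genes. The epithelial splicing factor ESRP1 measured 36.9 to 95.5 CPM in H1975 and at most 1 count in a vehicle-treated H1975–OR library (adjusted p = 7.95e-05). GRHL2, a transcription factor of epithelial cells, measured 21.8 to 63.9 CPM and at most 2 counts (adjusted p = 0.000517). ZEB1, a repressor of epithelial genes, was among those that rose (log2 fold change 3.02, adjusted p = 0.0228), a call lost without Sample 1b (0.0869), 1c (0.0837) or 2b (0.0880).

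Markers of other cell types were read beside these values. The summed level of 7 fibroblast genes was 33.4 to 45.6 CPM in H1975 and 65.1 to 118 CPM in vehicle-treated H1975–OR. The sum was 214 to 317 CPM with 1,25(OH)2D3, 55.9 to 138 CPM with osimertinib and 143 to 300 CPM with both agents. These genes did not move together between H1975 and vehicle-treated H1975–OR. COL3A1 went from a mean of 0.173 to 53.9 CPM and PDGFRB from 3.34 to 21.0 CPM, whereas COL1A2 fell from 12.1 to 1.02 CPM (adjusted p = 0.0345) and COL1A1 went from 21.0 to 9.51 CPM (adjusted p = 0.0559). COL1A1 and COL3A1 made up most of the sum with 1,25(OH)2D3, while PDGFRA had at most 4 and DCN at most 7 counts in any of the 14 libraries. Within H1975–OR, COL1A1 was called higher with 1,25(OH)2D3 than with vehicle, at means of 126 against 9.51 CPM. It was the 1 gene called of 5 tested fibroblast genes, beside 0.226% of all genes. With both agents, at 104 CPM, COL1A1 was also called higher than with vehicle (0.764% of genes called) and than with osimertinib at 16.1 CPM (0.109%). Squamous markers summed to at most 6.31 CPM, the T cell gene CD3E and the neuroendocrine genes CHGA and INSM1 were at 0 in all libraries, endothelial markers summed to at most 12.9 CPM and leukocyte markers to between 6.84 and 39.5 CPM. The part of these genes in the member values was not tested.

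Genes whose levels ran most like those of a called member were named by the correlation of log2(CPM + 2) over 14 libraries, which share conditions and scaling, and without a test. KRT19 was followed most closely by FAM83A (r = 0.970), NT5E (0.962) and CAPN2 (0.958), and their correlation over the 5 condition means was 0.976 or more. VIM was followed by SERPINH1 (0.959), RPL17 (0.954) and PWWP2A (0.944), and KRT81 by TMEM209 (0.954), MCFD2 (0.945) and CNOT9 (0.945). For KRT7 they were CAPN15 (0.917), PLA2G4B (0.915) and INSIG1 (0.913), for KRT18 FAIM (0.890), HIBADH (0.881) and NDUFB11 (0.868), and for KRT17 LSS (0.873), TGFB2 (0.871) and REXO2 (0.863).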

How the data were processed

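Stranded total RNA libraries (ribosomal RNA depleted) of H1975 and H1975–OR cells were sequenced as paired ends on a NextSeq500. Transcript abundances on hg38 were obtained by the authors with Kallisto and collapsed to gene level through tximport, and the deposited values are estimated counts, not scaled for depth or length. The submitters' processing notes also name CASAVA 1.8.2, STAR 2.5.2b and kallisto 0.43.0. The transcript annotation is not given in the sources used here.

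After rounding, the table was tested in R 4.3.3 with edgeR 4.0.16. The low-count filter was filterByExpr with the 5 groups (minimum count 10, minimum total 15), libraries were scaled by TMM, and contrasts of 1 fit of 14 libraries without Sample 3a were tested by the quasi-likelihood test with Benjamini-Hochberg adjustment over 12819 genes at 0.05. Each adjusted p is from this test unless another tool is named. Depth was 4378030 to 6140120 counts, and floors of 3 counts cover counting error only. The settings varied were the size factors (RLE), the tool (DESeq2 1.42.0), the filter (none, or 10 counts in every library), the inclusion of Sample 3a, the replicate letter as a block, fits of 8 or 11 libraries, compared groups alone, each library left out and, for shares, the median transcript length. A block in the 11 H1975–OR libraries, leaving out 2a, 4a and 5a, and canonical transcript lengths were added after the data had been seen. Lengths and positions came from GENCODE release 44. Promoter windows were looked up in RefSeq tables for all members, and those of VIM, KRT5 and KRT8 were found. The scripts were tested on simulated data. Replicates are separate passages of 1 line, so p-values measure the spread between these passages.

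All 10 members were taken in every comparison, the 8 tested ones by name or by the range of their adjusted p. From each gene list, up to 4 significant genes by size were taken, and ZEB1 was named after its values were seen. Likeness was given for members called in any comparison. Members and lists were chosen with earlier results of these data known. Same-letter libraries deviated together in the H1975–OR conditions vehicle, osimertinib and both agents (every r at least 0.118). They did not where H1975 entered (r from -0.121 to 0.0810). Between the 2 kept 1,25(OH)2D3 libraries and the other H1975–OR conditions r was -0.000916 to 0.154. The deviations of 2 libraries mirror each other, so pairing was not settled there. The block is given where it changed a call among vehicle, osimertinib and both agents, or a member's call against H1975. No 2 libraries of a condition were duplicates (chi-square per degree of freedom at least 9.27).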

Additional observations from a re-analysis of the deposited data

Results flagged for a closer look

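Sample 3a, an H1975–OR library with 1,25(OH)2D3 that entered no main comparison, held members above the level of all 3 vehicle-treated H1975–OR libraries. KRT7 measured 1034 CPM there, KRT8 857 CPM and KRT80 279 CPM. Samples 3b and 3c of the same condition gave 629 and 850.3 CPM for KRT7, 303 and 396 CPM for KRT8, and 151 and 153 CPM for KRT80. The KRT80 value was the highest of all 15 libraries.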

How the results depend on the processing

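No called member value changed sign under any alternative, and of the member fold changes recomputed under them 1963 kept their side of the threshold, 29 gained it and 45 lost it. For vehicle-treated H1975–OR against H1975, the count of 3 members became 5 with DESeq2 and 5 with the replicate block. For osimertinib against vehicle 0 became 1 with DESeq2 and 1 without 2a, 4a and 5a, and 0 to 1 with each library left out. For both agents against vehicle 0 became 1 with DESeq2, 1 with the replicate block in 11 libraries and 1 without 2a, 4a and 5a, and 0 to 1 with each library left out. For both agents against 1,25(OH)2D3 the count of 1 became 0 in the fit of 11 libraries and 0 with the compared groups alone, and 0 to 1 with each library left out. The 10 calls of treated H1975–OR against H1975 ranged from 4 (without Sample 1c) to 11 with each library left out, and were 6 without Sample 1b. The cause of these changes was not tested, and the smaller fits also held fewer libraries. The fits of 8 or 11 libraries give no value for osimertinib or both agents against H1975.

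Over all genes the replicate block moved the calls from 12 to 23 for osimertinib against vehicle, from 14 to 28 for both agents against osimertinib and from 98 to 170 for both agents against vehicle. DESeq2 gave 144, 70 and 417 there, and 85 in place of 29 for 1,25(OH)2D3 against vehicle. Compared groups alone gave 2, 2, 8 and 9. For both agents against 1,25(OH)2D3 the 71 calls became 372 with DESeq2, 183 with the block in 11 libraries and 9 with the groups alone, and for osimertinib against 1,25(OH)2D3 the 192 became 539, 387 and 100. The block in 11 libraries gave 461 for both agents against vehicle. KRT5 and KRT6A are limited by counts below the floor in every library, and KRT17 in H1975 and KRT81 in H1975–OR by low counts.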

Other observations

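Keratins outside the listed 10 held a few further values. KRT16, the type I stress keratin that pairs with KRT6A, measured 22.6 and 19.1 CPM in Samples 3b and 3c with 1,25(OH)2D3 and 24.8 CPM in 3a, against 9.41, 5.38 and 3.47 CPM under vehicle in H1975–OR. The groups did not overlap, but the log2 fold change of 1.77 had an SE of 0.89 and an adjusted p of 0.813 in edgeR's test. KRT13, a type I keratin of internal stratified epithelia, measured 9.24 and 19.3 CPM in 3b and 3c and 0 in 3a, against 0.346, 0 and 0 CPM in H1975, and was called higher with 1,25(OH)2D3 than in H1975 (adjusted p = 0.0154, 0.00238 to 0.0825 over its alternatives, and above 0.05 without Sample 1b, 1c or 3c). Its vehicle libraries of H1975–OR held 0, 5.17 and 4.24 CPM.

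KRT15, a type I basal keratin, measured 3.62, 4.30 and 7.16 CPM with osimertinib and 4.61, 4.70 and 6.61 CPM with both agents, against 7.37, 25.9 and 16.8 CPM under vehicle in H1975–OR. All 6 osimertinib-treated libraries were below all 3 vehicle libraries, with adjusted p values of 0.203 and 0.110 in edgeR's test. DESeq2 gave 0.0216 and 0.0160, leaving out Sample 2a gave 0.0243 and 0.0175, and for both agents leaving out 2a, 4a and 5a gave 0.0304. Against the 12.0, 9.85 and 13.6 CPM of H1975 the osimertinib group was called lower (adjusted p = 0.0497, 0.0158 to 0.149 over its alternatives), but 7 of 22 alternatives kept this call, and leaving out any of Samples 1a, 1b, 1c, 4a and 4b gave 0.0714 to 0.149.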
